A study of Mus musculus with 4 samples.

Results

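The genes described here are 44 mouse genes of antioxidant defence and of the Foxo transcription factors, compared between long-term (LT-HSC) and short-term (ST-HSC) haematopoietic stem cells. They were chosen by name. Among the probe sets annotated to its symbol alone, the brightest by the mean over the arrays stood for a gene. Of the 44 genes, 41 had such a probe set, among 18193 genes in all, and 40 were bright enough to be tested, among 12832. The exceptions were Prdx1, Prdx5 and Prdx6, which had no probe set with a single symbol and were not analysed here, and Sod3, the extracellular superoxide dismutase. Sod3 read 25.2 and 10.1 in LT-HSC compared with 6.34 and 1.59 in ST-HSC, below the level at which probe sets were tested.

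RNA was measured on 4 Affymetrix arrays, 2 per group, from sorted bone marrow of mice on a C57BL/6 background without the inducible Mx-Cre transgene, the controls of the study. All groups were given poly(I:C), an RNA mimic that triggers interferon, in 7 injections. Both populations were lineage-negative, cKit+, Sca1+ and CD135-, with LT-HSC CD34- and ST-HSC CD34+, and no unsorted or uninjected group was analysed here. Mice were 7.5 weeks old and 4 weeks past the last injection, except those of ST-HSC replicate 3, which were 8.5 weeks old and 3 weeks past it. In the ST-HSC samples the tissue entry names LT-HSC together with a CD34+ gate; their titles were followed. Whether replicates are separate animals or pools is not in the labels, so p-values measure only the spread between these samples. In bulk samples, fewer cells of a type and less RNA per cell cannot be told apart.

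Superoxide and hydrogen peroxide are by-products of respiration and of oxidases. Superoxide dismutases turn superoxide into peroxide, which catalase, peroxiredoxins and glutathione peroxidases remove. The thioredoxin and glutathione systems return the peroxiredoxins and glutathione peroxidases to their reduced state with electrons from NADPH. Nrf2 (Nfe2l2), held in check by Keap1, binds the antioxidant response element and switches on many of these genes, and Foxo factors, restrained by PI3 kinase and Akt, switch on others. Blood stem cells are sensitive to oxidants, and loss of Foxo factors in mice raises their oxidant level and depletes them.

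For reference, promoter sequence from RefSeq (GRCm38.p6, from 250 bases before to 50 after each start site) was found for 38 of the 44 genes. The core of the antioxidant response element, TGACNNNGC, occurred on either strand in 9 of these 38 genes (23.7%) against 14% of 27018 genes with a promoter sequence. The Foxo core GTAAACA occurred in 3 of the 38 (7.89%) against 4.05%. These counts are small, and the difference in shares was not tested. A match is a description of the letters and not a binding site. The windows below are those of tested genes with a match before the start site. They are given to show what these matches look like in the genes described further on. Capitals mark the match, which stands on the opposite strand where it does not read as spelled here.
Txnrd1 (chr10:82859088-82859148, + strand): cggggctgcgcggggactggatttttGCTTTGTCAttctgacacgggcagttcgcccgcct
Gclm (chr3:122245397-122245457, + strand): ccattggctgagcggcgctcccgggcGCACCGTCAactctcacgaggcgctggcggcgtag
Nfe2l2 (chr2:75704869-75704913, - strand): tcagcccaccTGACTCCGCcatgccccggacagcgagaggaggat
Mgst1 (chr6:138140445-138140505, + strand): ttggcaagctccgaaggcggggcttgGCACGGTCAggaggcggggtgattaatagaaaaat
Gstm5 (chr3:107895786-107895846, + strand): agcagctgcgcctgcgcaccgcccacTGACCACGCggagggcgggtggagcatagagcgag
Sesn2 (chr4:132510458-132510518, - strand): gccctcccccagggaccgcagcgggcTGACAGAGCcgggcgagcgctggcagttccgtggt
Sod1 (chr16:90220680-90220740, + strand): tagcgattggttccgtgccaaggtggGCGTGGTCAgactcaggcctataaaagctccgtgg
Txnip (chr3:96557810-96557868, + strand): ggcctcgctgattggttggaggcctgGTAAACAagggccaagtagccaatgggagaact
Glrx2 (chr1:143739285-143739343, + strand): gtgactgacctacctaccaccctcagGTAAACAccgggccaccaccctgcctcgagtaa

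The arrays differed in ways that bear on these genes. Median intensities ran from 19.1 to 28.3. Cd34, which separated the gates, read 18.3 and 23.5 in LT-HSC compared with 841 and 1142 in ST-HSC. Of 10 tested sort and stem cell genes, 2 were lower in LT-HSC, 0 higher, and the median was -0.86. Without ST-HSC replicate 3, 7 were lower. Procr and Mecom, of this list, read from 458 to 1376 and from 499 to 1046 over the arrays, and neither passed. Of 12 plasma cell genes, 10 were higher in LT-HSC and 1 lower, against 7.92% and 6.41% of all tested genes. Their summed intensities were 78656 and 80711 in LT-HSC compared with 10224 and 10784 in ST-HSC. Of 11 tested genes of maturing granulocytes 0 passed in limma (3 at an unadjusted p under 0.05), with sums of 3937 and 578 in LT-HSC, 3616 in ST-HSC replicate 2 and 51580 in ST-HSC replicate 3. All 11 passed as lower in LT-HSC when ST-HSC replicate 2 was left out. The sums over 20 immediate early genes, the first to answer a stimulus, were 47257 and 45335 in LT-HSC, 27005 in ST-HSC replicate 2 and 5451 in ST-HSC replicate 3. The part of these differences in the results below was not tested.

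Of the 40 tested genes, LT-HSC had 3 higher (Foxo1, Prdx4 and Mgst2) and 3 lower (Gpx1, Txnrd1 and Nqo1), and 34 did not pass an adjusted p of 0.05. Differences are LT-HSC minus ST-HSC on the log2(intensity + 16) scale after quantile normalization, with the moderated standard error (SE) of limma and p-values adjusted by Benjamini-Hochberg over all 27022 probe sets tested. Adding 16 makes the fold of a dim gene too small. Over all tested genes 14.3% passed, 7.92% higher and 6.41% lower in LT-HSC, so the share of 15% among the 40 was near that of genes at large. The median difference was -0.35, against -0.08 over all tested genes, and became -0.07 with the arrays centred on their medians (-0.03 over all tested genes). After normalization both LT-HSC arrays lay below both ST-HSC arrays for 20 of the 40 genes and above them for 9, against 35.7% and 28.6% of all genes. On the deposited intensities these counts were 18 and 10. With no normalization between arrays, 3 genes were higher and 5 lower.

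All 6 calls needed both LT-HSC arrays: without LT-HSC replicate 1 or 2, 0 of the 40 passed, and 2.02% or 1.94% of all genes did. Without ST-HSC replicate 2, 12 were higher and 14 lower (36.9% of all genes passed), and without ST-HSC replicate 3, 5 and 8 (27.9%). With an array left out, the spread of the group left with 1 array was not measured, and that of the other pair was used. Within pairs, the median absolute difference over the 40 genes was 0.13 for LT-HSC and 0.57 for ST-HSC. Calls gained or lost in any such fit given here are therefore not results in their own right. An exact permutation test of 2 arrays against 2 cannot give a two-sided p below 0.33, and limma was the test used for each gene.

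**Figure D1:**
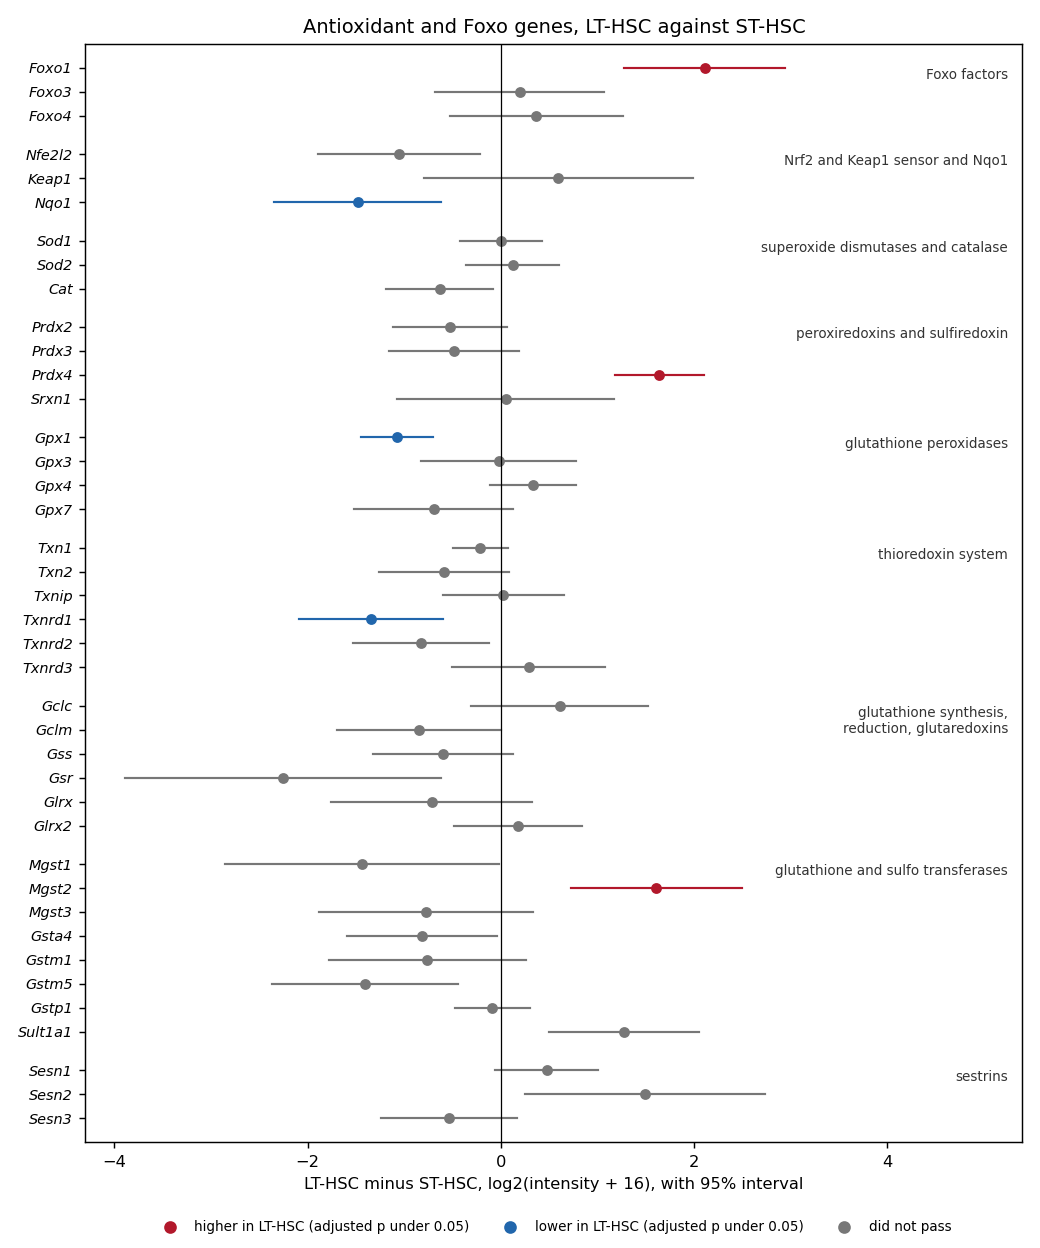
Difference between LT-HSC and ST-HSC (horizontal axis, log2(intensity + 16), points with 95% intervals from limma) for the 40 tested genes, grouped by role. Foxo1, Prdx4 and Mgst2 lie to the right of 0 in red, Gpx1, Txnrd1 and Nqo1 to the left in blue, and the 34 grey genes did not pass.

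Of the 3 Foxo factors, Foxo1 rose in LT-HSC and Foxo3 and Foxo4 did not pass. Foxo1, which in lymphoid cells controls the interleukin-7 receptor and recombination genes, read 939.8 and 911 in LT-HSC compared with 283 and 137 in ST-HSC, 4.31-fold higher in LT-HSC (difference 2.11, SE 0.35, adjusted p = 0.0145). Both LT-HSC arrays were far above both ST-HSC arrays, and the ST-HSC arrays differed from each other by 0.88. All 3 of its tested probe sets passed, with differences of 2.03, 2.11 and 2.95. The last of these, a dimmer probe set at 343 and 323 against 43.3 and 23.5, also passed without LT-HSC replicate 1 (adjusted p = 0.0478) and without replicate 2 (0.0462), where the brightest did not (0.181 and 0.142).

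Foxo3, the factor most tied to stem cell maintenance in mice, read 1587 and 1340 in LT-HSC compared with 1588 and 805 in ST-HSC (difference 0.19, 95% interval -0.68 to 1.07, adjusted p = 0.754). The groups overlapped, with ST-HSC replicate 3 the low array. Without ST-HSC replicate 2 the difference of Foxo3 was 0.76, and without ST-HSC replicate 3 it was -0.37. Foxo4 read 135 and 87.7 against 113 and 68.0, again overlapping (difference 0.37, interval -0.53 to 1.26).

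Among 25 tested genes upstream of the Foxo factors (PI3 kinases, Akt, deacetylases and cofactors) 0 passed in limma, and 9 had an unadjusted p under 0.05. Without LT-HSC replicate 2, 1 passed, without ST-HSC replicate 2, 13 did and without ST-HSC replicate 3, 8 did. Of 38 tested genes known as Foxo targets, 8 rose, 0 fell and 30 did not pass, with a median of 0.11. The shares over all tested genes were 7.92% higher and 6.41% lower. Il7r, the interleukin-7 receptor, read 981 and 1118 against 16.9 and 39.9 (difference 4.59, SE 0.37, adjusted p = 0.00104). Il7r is also a marker of lymphoid cells, and 4 of 7 tested B-cell genes were higher in LT-HSC, with summed intensities of 4745 and 5241 against 331 and 435. Gadd45b, a stress-induced growth restraint, rose by 2.27, Irs2, an insulin receptor substrate, by 2.69, and Trib1, a pseudokinase, by 2.29. Trib1 was tested only in fits with both LT-HSC arrays, because its mean was under the filter level when either was left out. Its test thus depended on the group where it was higher. The antioxidant genes on that list, Sod2, Cat, Sesn1, Sesn3, Prdx3 and Txnip, did not pass. Without LT-HSC replicate 1 or 2, 1 target rose, and leaving out ST-HSC replicate 2 or 3 gave 15 or 8 higher and 5 lower in each case.

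Nqo1, a quinone reductase and a standard readout of Nrf2, fell in LT-HSC, with 7.07 and 16.6 against 51.2 and 86.0 in ST-HSC (difference -1.48, SE 0.36, adjusted p = 0.0454). The groups did not overlap, but the LT-HSC values were near the dim end of the array. After normalization the LT-HSC mean of Nqo1 (4.83) lay under the filter level of 5.03. The gene was tested only because its ST-HSC mean (6.31) raised the mean over the arrays. This was the call closest to the threshold, and it was lost with a pseudocount of 64 (-0.75, adjusted p = 0.0605), with no filter (0.0677) and without ST-HSC replicate 3 (-1.10, adjusted p = 0.136). Just outside it lay Sult1a1 (1.27, adjusted p = 0.0504).

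Nfe2l2 itself read 282 and 309 in LT-HSC compared with 461 and 874 in ST-HSC, lower on both LT-HSC arrays, and did not pass (difference -1.05, interval -1.89 to -0.22, adjusted p = 0.0987). Its other probe set moved the other way, from 13.2 and 7.09 in ST-HSC to 54.6 and 146 in LT-HSC (2.20, adjusted p = 0.0198, and 0.0831 without LT-HSC replicate 2). After normalization the ST-HSC mean of this dimmer probe set (4.64) lay under the filter level of 5.03. It was tested only because its LT-HSC mean (6.84) raised the mean over the arrays, so its test depended on the group where it was higher. The brightest probe set did not pass and the dimmer one differed in sign, so no direction can be given for Nfe2l2. Keap1, the sensor that marks Nrf2 for destruction, read 1026 and 1013 in LT-HSC, 1183 in ST-HSC replicate 2 and 308 in ST-HSC replicate 3. Its difference of 0.60 (interval -0.80 to 1.99) turned on the ST-HSC array used: 1.60 without ST-HSC replicate 2 (adjusted p = 1.02e-05) and -0.41 without ST-HSC replicate 3 (adjusted p = 0.0489).

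Of 14 genes of Nrf2 partners and regulators, 3 fell, 1 rose and 10 did not pass, with a median of -0.12. The shares over all tested genes were 6.41% lower and 7.92% higher. Nfe2, a related erythroid and megakaryocytic factor, fell by 1.50, Bach2, a repressor in B cells, by 1.47 and Palb2, a repair protein that binds Keap1, by 1.75. Sqstm1 (p62), an autophagy receptor that also binds Keap1, rose by 1.34 (SE 0.28, adjusted p = 0.0305). None of the 14 passed without LT-HSC replicate 1 or 2 (0 in each). Leaving out either ST-HSC array gave 3 higher and 4 lower. The median was 0.05 without LT-HSC replicate 2 and 0.13 without ST-HSC replicate 2.

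The enzymes at the head of the pathway, the superoxide dismutases and catalase, gave no call on their brightest probe sets (0 of 3 in limma, 1 at an unadjusted p under 0.05). Sod1, the cytosolic dismutase, read 6509 and 6453 in LT-HSC compared with 7268 and 4503 in ST-HSC (interval -0.43 to 0.43). Its ST-HSC arrays lay on either side of LT-HSC, so that its difference was 0.25 without ST-HSC replicate 2 (adjusted p = 0.0246) and -0.25 without ST-HSC replicate 3 (0.03). Sod2, the mitochondrial dismutase, read 1367 and 1397 against 1065 and 1173 (difference 0.12, interval -0.36 to 0.60). Further probe sets of both passed, one of Sod1 higher in LT-HSC (1.38, adjusted p = 0.0273) and one of Sod2 lower (-1.86, adjusted p = 0.0238), and neither passed without LT-HSC replicate 1 or 2. The probe sets of each gene thus differed in sign or size. Cat, catalase, read 735 and 794 against 960 and 1242, lower on both LT-HSC arrays (difference -0.63, interval -1.19 to -0.08, adjusted p = 0.124). Its other probe set was also lower (-1.06) and also did not pass.

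Prdx4, the peroxiredoxin of the endoplasmic reticulum, which takes part in protein folding, rose in LT-HSC and had the smallest adjusted p of the 40. It read 3912 and 4222 in LT-HSC compared with 948 and 1232 in ST-HSC, 3.11-fold higher (difference 1.64, SE 0.19, adjusted p = 0.00451). The groups were far apart, and each pair was tight. Of its 4 tested probe sets 3 passed (1.64, 1.80 and 1.81) and the dimmest, at 20.5 and 34.3 against 24.9 and 20.4, did not (0.27). Plasma cells secrete antibody through the endoplasmic reticulum, and the same LT-HSC arrays carried their genes: Xbp1, a factor of secretory cells, read 9950 and 9826 against 570 and 775, and Sdc1 (CD138) read 5728 and 5677 against 113 and 104. The part of plasma cell RNA in the Prdx4 difference was not tested.

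The peroxiredoxins of other compartments did not pass. Prdx2, the cytosolic form that is abundant in red cells, read 2040 and 1980 against 1845 and 2935 (difference -0.53, interval -1.12 to 0.07). The mitochondrial Prdx3 read 543 and 661 against 662 and 991 (-0.49, interval -1.16 to 0.18). In both, ST-HSC replicate 3 was the highest array. Without ST-HSC replicate 2 they were at -0.87 and -0.75, and without replicate 3 at -0.18 and -0.23. Srxn1, sulfiredoxin, which repairs over-oxidised peroxiredoxins, read 59.8 and 21.2 against 44.9 and 34.7 and overlapped. The difference of Prdx4 from Prdx2 and Prdx3 was not tested.

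Gpx1, the main cytosolic glutathione peroxidase, a selenoprotein, fell in LT-HSC. It read 2468 and 2480 in LT-HSC compared with 4002 and 4547 in ST-HSC, 2.11-fold lower (difference -1.08, SE 0.16, adjusted p = 0.00964). The groups did not overlap, and each pair lay within 0.22 on the log2 scale. The call was lost after median centring of the arrays (-0.68, adjusted p = 0.183) and with no intensity trend in the spread model (adjusted p = 0.0586). Gpx4, which reduces lipid peroxides in membranes, read 2999 and 3436 against 1847 and 2291, with both LT-HSC arrays above both ST-HSC arrays (difference 0.33, interval -0.11 to 0.78). Gpx4 did not pass, and was at 0.47 without ST-HSC replicate 3 and at 0.20 without ST-HSC replicate 2. Its second probe set had a difference of -0.06. The secreted Gpx3 (47.7 and 53.4 against 47.5 and 67.9) and Gpx7 of the endoplasmic reticulum (24.7 and 54.3 against 68.7 and 90.1) were dim and did not pass.

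**Figure D2:**
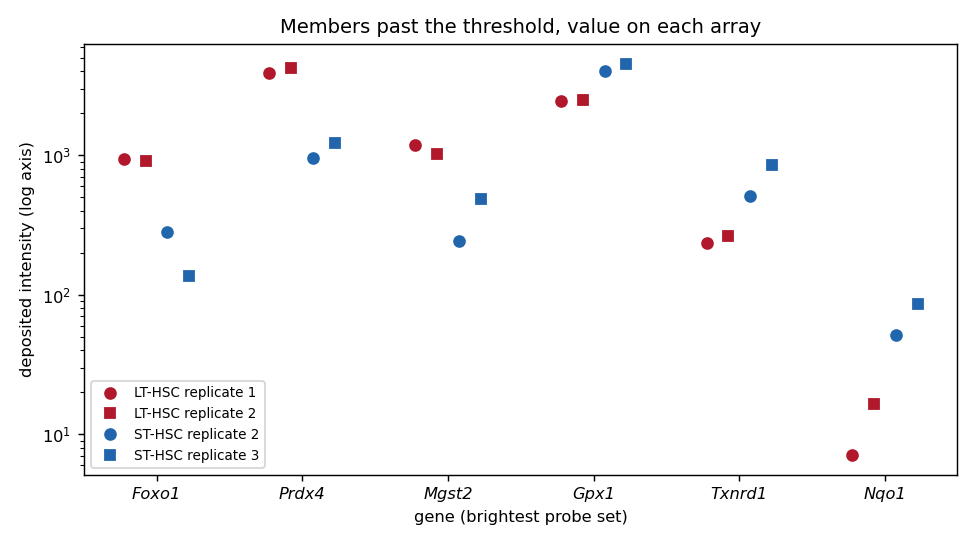
Deposited intensity (vertical log axis) of the brightest probe set of the 6 genes that passed, with 1 point per array (red LT-HSC, blue ST-HSC). In each gene the red and the blue points do not overlap, and for Nqo1 all 4 points lie under 100.

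In the thioredoxin system, Txnrd1, the cytosolic selenoprotein that reduces thioredoxin, fell in LT-HSC. It read 235 and 264 in LT-HSC compared with 514 and 852 in ST-HSC, 2.54-fold lower (difference -1.35, SE 0.31, adjusted p = 0.0395). The groups did not overlap, and the ST-HSC arrays were the more spread. A second tested probe set, near background at 13.1 and 24.9 against 25.8 and 22.3, had a difference of -0.11, and the mean over its probe sets did not pass (-0.50, adjusted p = 0.149). The call was also lost with no intensity trend (adjusted p = 0.0526). Mitochondrial Txnrd2 read 79.8 and 89.1 against 185 and 173 (difference -0.83, interval -1.53 to -0.12, adjusted p = 0.117), while its 3 other probe sets ranged from -1.12 to 1.41. Txnrd3, a form known from testis, read 316 and 347 against 364 and 209 and overlapped.

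The thioredoxins, substrates of these reductases, and Txnip, an inhibitor of thioredoxin, did not pass. Txn1, cytosolic thioredoxin, read 5821 and 5620 against 5957 and 5352 (difference -0.21, interval -0.50 to 0.07). Mitochondrial Txn2 read 514 and 503 against 593 and 922 (-0.59, interval -1.26 to 0.08). Txnip, which binds and inhibits thioredoxin and is high in resting cells, read 2831 and 2763 in LT-HSC, 2943 in ST-HSC replicate 2 and 1781 in ST-HSC replicate 3. Its difference of 0.03 (interval -0.60 to 0.66) became 0.42 without ST-HSC replicate 2 (adjusted p = 0.00876) and -0.36 without ST-HSC replicate 3 (adjusted p = 0.0189).

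None of the 6 genes of glutathione synthesis, reduction and glutaredoxins passed (0 in limma, 2 at an unadjusted p under 0.05). Without ST-HSC replicate 2 Gclc was 1.15 and Glrx -1.32, and without replicate 3 Gclm was -1.26. With the other ST-HSC array left out Gclc was 0.08, Glrx -0.11 and Gclm -0.44. Gsr, glutathione reductase, had the lowest difference of the 40 genes, with 17.7 and 59.3 in LT-HSC compared with 117 and 511 in ST-HSC. The groups did not overlap, but both pairs were wide (difference -2.25, SE 0.69, interval -3.89 to -0.62, adjusted p = 0.0794). Gsr passed after median centring (-2.29, adjusted p = 0.019), with no normalization (-2.39, 0.0465) and without ST-HSC replicate 2 (-3.32, 3.98e-05). It was -1.18 without ST-HSC replicate 3 (adjusted p = 0.0878) and -1.56 as the mean of its probe sets (0.11).

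The 2 subunits of glutamate-cysteine ligase, the first step of glutathione synthesis, stood on opposite sides of 0. The catalytic Gclc read 614 and 554 against 519.6 and 249.7 (difference 0.61, interval -0.30 to 1.53), and its second probe set was at -0.70. The regulatory Gclm read 155 and 174 against 436 and 239 (-0.85, interval -1.70 to -0.00089), and its second probe set passed at -1.47 (adjusted p = 0.0317, and 0.301 and 0.143 without LT-HSC replicates 1 and 2). The difference between Gclc and Gclm was not tested. Gss, glutathione synthetase, read 54.5 and 74.8 against 139 and 97.5 (-0.59). The glutaredoxin Glrx read 113 and 137 against 161 and 351 (-0.72), and mitochondrial Glrx2 read 394 and 356 against 313 and 368 (0.18). Of this group Gsr, Gclm, Gss and Glrx were lower on both LT-HSC arrays than on both ST-HSC arrays, as were 35.7% of all tested genes.

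Among the transferases, Mgst2, a microsomal enzyme of leukotriene synthesis and detoxification, rose in LT-HSC. It read 1193 and 1019 in LT-HSC compared with 241 and 485 in ST-HSC, 3.06-fold higher (difference 1.61, SE 0.37, adjusted p = 0.0389). The groups did not overlap, and with no intensity trend the call was lost (adjusted p = 0.0555). Its relatives Mgst1 and Mgst3 were on the other side of 0 and did not pass. Mgst1 read 142 and 255 in LT-HSC, 306 in ST-HSC replicate 2 and 1093 in ST-HSC replicate 3 (difference -1.43, SE 0.60, adjusted p = 0.161), and was -2.37 without ST-HSC replicate 2 (adjusted p = 1.82e-05), -0.50 without ST-HSC replicate 3 (0.252) and -0.30 as the mean of its probe sets (0.49). Mgst3 read 19.4 and 29.6 against 31.7 and 95.4 (-0.78). The difference of Mgst2 from them was not tested.

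The cytosolic transferases did not pass. Gstm5 read 63.5 and 98.5 against 191 and 360 (difference -1.41, SE 0.40, adjusted p = 0.0671), and passed under 4 of 13 alternatives, among them centring on the medians (-1.44, adjusted p = 0.0302). Gsta4, which clears products of lipid peroxidation, read 62.5 and 55.6 against 152 and 108 (-0.82, interval -1.60 to -0.04). Gstm1 read 586 and 350 against 499.8 and 1115 (-0.76) and overlapped. All 4 of its probe sets were below 0, and the name of the brightest (_x_at) marks probes that may also bind related transcripts. The brightest probe sets of Gpx4, Txn2 and Gss carry the same mark. Gstp1, an abundant form, read 3477 and 3466 against 3291 and 2672 (difference -0.09, interval -0.48 to 0.30), above ST-HSC as deposited but not after normalization. Sult1a1, a sulfotransferase, read 114 and 92.3 against 37.0 and 36.6, without overlap. It missed the threshold at 1.27 (SE 0.33, adjusted p = 0.0504) and passed under 5 of 13 alternatives.

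The sestrins, which p53 and Foxo factors induce and which restrain mTORC1, did not pass (0 of 3 in limma, 1 at an unadjusted p under 0.05). Sesn1 read 2612 and 2222 against 1640 and 1274, and all 4 of its probe sets were above 0 (0.19 to 0.76). Sesn2 read 210 and 233 in LT-HSC, 152 in ST-HSC replicate 2 and 34.1 in ST-HSC replicate 3 (difference 1.50, SE 0.52, adjusted p = 0.109), and was 2.29 without ST-HSC replicate 2 (adjusted p = 9.39e-05) and 0.70 without ST-HSC replicate 3 (0.0741). Sesn3 read 249.8 and 289 against 470.4 and 342 (-0.54, interval -1.24 to 0.17). Of 7 tested genes of the p53 axis that act on oxidants, Sesn1 and Sesn2 among them, 2 rose and 0 fell, with a median of 1.10. For all tested genes the shares were 7.92% higher and 6.41% lower. Pmaip1 (Noxa), a killer protein of the BCL2 family, rose by 3.48, and Tigar, a phosphatase that diverts sugar to the pentose phosphate pathway, by 1.28. Without LT-HSC replicate 1 or 2, 1 rose, and without ST-HSC replicate 2, 7 did.

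Of the 7 tested genes with an antioxidant response element match printed above, Txnrd1 fell and Gclm, Nfe2l2, Mgst1, Gstm5, Sesn2 and Sod1 did not pass, with differences from -1.43 for Mgst1 to 1.50 for Sesn2. Txnip and Glrx2, with a Foxo match, differed by 0.03 and 0.18 and did not pass. The other genes that passed, Foxo1, Prdx4, Mgst2, Gpx1 and Nqo1, had no match to either motif in these windows.

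Around the 44 genes, the enzymes that supply NADPH included 4 that were lower in LT-HSC. Of 17 tested, 4 fell, 0 rose and 13 did not pass, with a median of -0.83. For all tested genes the shares were 6.41% lower and 7.92% higher. Tkt, transketolase, read 1689 and 1407 against 7468 and 3286 (difference -1.87, SE 0.30, adjusted p = 0.0134). Pgd, of the oxidative pentose phosphate pathway, fell by 0.90, Mthfd1l, of mitochondrial folate metabolism, by 1.42 and the NAD kinase Nadk2 by 1.17. Of 22 tested genes of DNA replication and mitosis 18 fell in the same comparison, with summed intensities of 9037 and 11320 in LT-HSC compared with 29920 and 34753 in ST-HSC. With LT-HSC replicate 1 or 2 left out, 1 or 2 of them did. None of the NADPH genes passed without LT-HSC replicate 1 or 2 (0 in each), and leaving out ST-HSC replicate 2 or 3 gave 11 or 8 lower and 1 or 2 higher.

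Of 36 other antioxidant and glutathione genes, 6 rose, 1 fell and 29 did not pass, with a median of -0.15. Shares over all tested genes were 7.92% higher and 6.41% lower. Gsta2, an alpha-class transferase best known from liver, read 2118 and 1939 in LT-HSC compared with 0.00827 and 0.0312 in ST-HSC, so that its difference of 6.86 rests on the pseudocount. Both ST-HSC values are at the floor, so Gsta2 was tested only through LT-HSC. The spread of its ST-HSC pair is that of the floor, also in the fits without an LT-HSC array. Txndc5, a thioredoxin-like protein of the endoplasmic reticulum, rose by 4.19, Chac1, which degrades glutathione, by 4.66 and Slc3a2, the heavy chain of the cystine and amino acid transporters, by 2.96. Txndc5 read 5987 and 5305 against 299 and 247, on the arrays that carried the plasma cell genes given above. Msra, a methionine sulfoxide reductase, fell by 1.73. Gsta2, Txndc5, Chac1 and Slc3a2 also passed without LT-HSC replicate 1 or 2, when 4 of the list rose in each case and 0 fell. Leaving out ST-HSC replicate 2 or 3 gave 8 higher in each case and 12 or 4 lower. Of 8 tested oxidant sources, Mpo, the peroxidase of granulocyte precursors, fell by 5.16 and Cyba, a subunit of the phagocyte oxidase, rose by 2.01 (adjusted p = 0.0408), or by 1.21 without ST-HSC replicate 2. Of 11 tested macrophage and dendritic cell genes 5 were also higher in LT-HSC and 0 lower, with summed intensities of 10333 and 12253 in LT-HSC compared with 2484 and 2081 in ST-HSC. Their part in the Cyba difference was not tested. Without LT-HSC replicate 1 or 2 Mpo alone of these passed (adjusted p = 0.0134 and 0.0193), and without ST-HSC replicate 2 or 3, 2 or 3 were higher and 4 or 1 lower.

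The ST-HSC arrays differed from each other more in these genes than the LT-HSC arrays did. The median absolute difference within the pair was 0.57 for ST-HSC and 0.13 for LT-HSC over the 40 genes, against 0.37 and 0.23 over all tested genes, and it was wider in ST-HSC for 33 of the 40. ST-HSC replicate 3 lay more than 1 (log2) above replicate 2 for 7 genes, Gsr, Mgst1, Mgst3, Glrx, Gstm1, Mgst2 and Gstm5. It lay more than 1 below replicate 2 for 4, Keap1, Sesn2, Foxo3 and Gclc. Within LT-HSC only Srxn1 differed by over 1. Among all tested genes 10.5% differed by over 1 between the ST-HSC arrays and 4.88% between the LT-HSC arrays. ST-HSC replicate 3 was also the array with the granulocyte genes and with the lowest immediate early genes, and came from mice of another age and interval after injection. Whether any of these accounts for the spread was not tested.

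**Figure D3:**
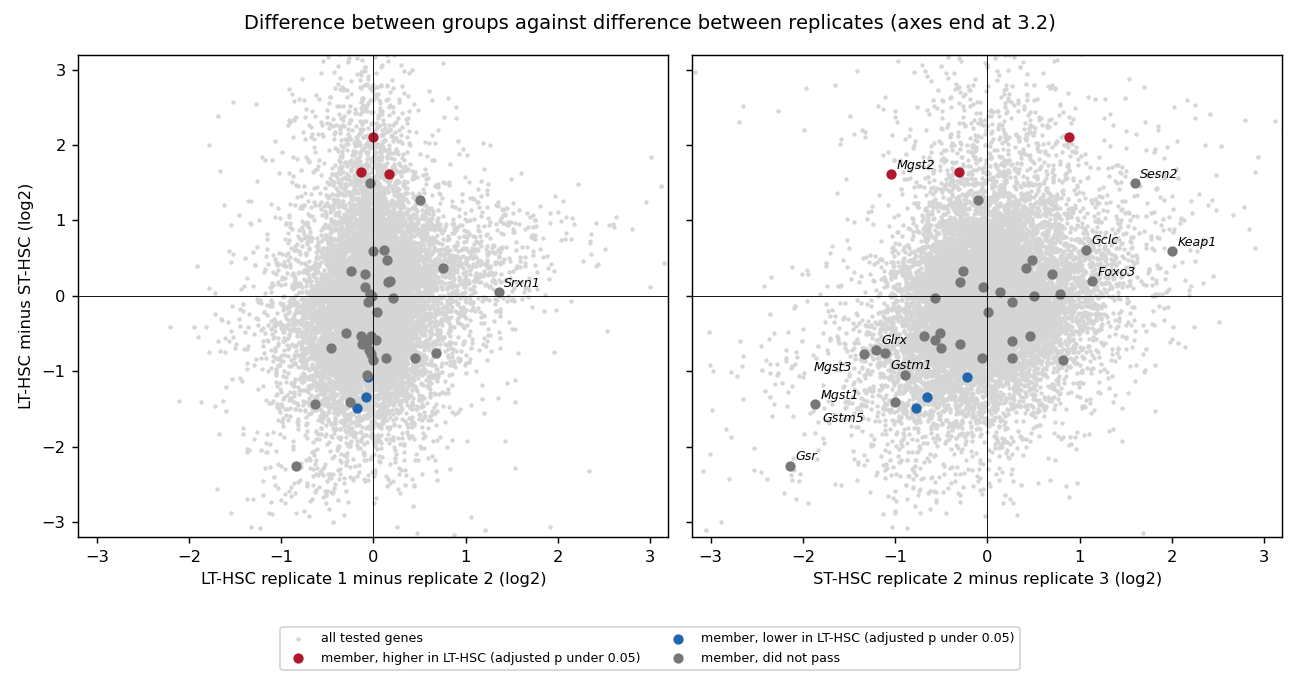
Difference between LT-HSC and ST-HSC (vertical axis, log2) against the difference between the LT-HSC replicates (left) and between the ST-HSC replicates (right), with grey dots for all tested genes and larger points for the 40 genes. Some grey dots lie beyond the axes. On the left Srxn1 is the only larger point beyond 1, and on the right 11 are, with Gsr and Keap1 at the ends.

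Further probe sets gave a check on the brightest. The 41 genes had 94 probe sets, and of the 53 that were not the brightest 41 were tested. Of these 41, LT-HSC had 6 higher and 2 lower and 33 did not pass, so 19.5% passed against 12.2% of all probe sets. Several of the 6 were of Foxo1 and Prdx4, which also passed on their brightest, so the share does not count separate genes. The sign was that of the brightest in 28 and the opposite in 13. Of the 25 genes with a tested further probe set, 9 had at least 1 of the opposite sign, among them Nfe2l2, Gclc and Txnrd2, and 15 of the 40 had a single tested probe set, among them Gpx1, Nqo1 and Mgst2.

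**Figure D4:**
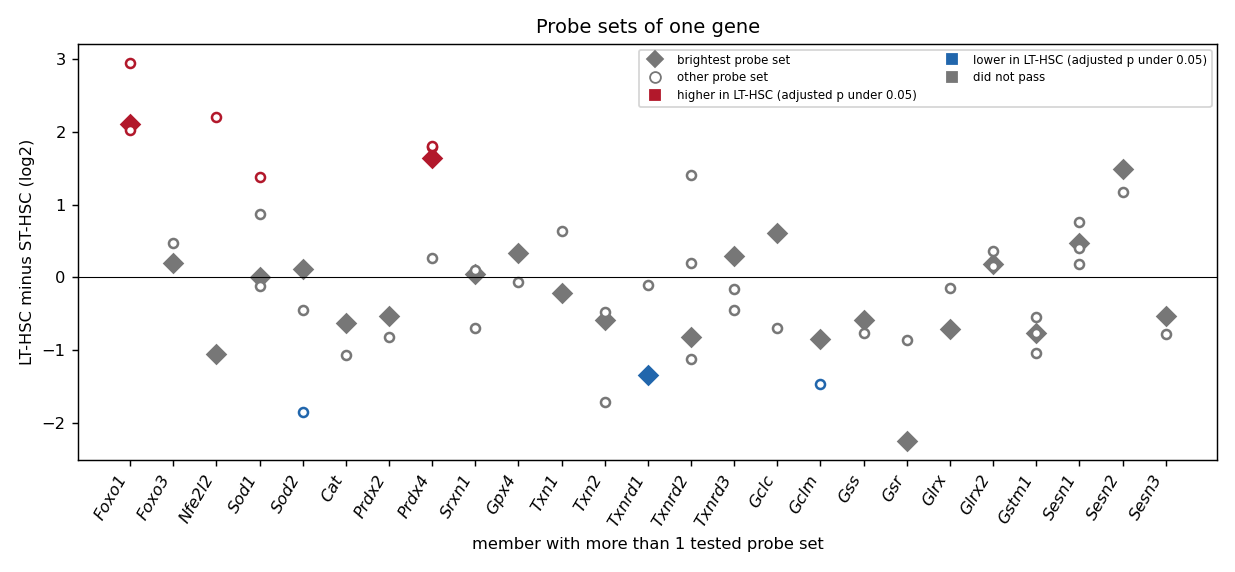
Difference between LT-HSC and ST-HSC (vertical axis, log2) of every tested probe set of the 25 genes with more than 1, the brightest as a filled diamond and the others as open circles, coloured by call. Foxo1 and Prdx4 have several red symbols at like heights, while Nfe2l2 has its symbols at -1.05 and 2.20.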

How the data were processed

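Polyadenylated RNA of sorted cells went through Trizol extraction, 2 amplification rounds and biotin labelling, per the labels' protocols. The authors deposited a linear intensity for each probe set on each array, with no log2 step. The sources used here do not name the summarising software or any scaling. Of the probe sets, 64 controls were left out, and the other 45037 were quantile normalized as log2(intensity + 16). Those whose mean exceeded the 40th percentile (27022) were tested with limma 3.58.1 in R 4.3.3 (lmFit, eBayes with an intensity trend, 4.84 prior and 2 residual degrees of freedom). Intervals are 95% intervals from this fit. The fit was also run on simulated data with equal spread in both groups and no differences between arrays. That run does not cover the unequal pairs and array differences described above. With an array left out, the filter was applied again and the lone array was assumed to vary like the other group. The platform annotation gave 1 symbol to 34945 probe sets, several to 932 and none to 9160. By Entrez identifier 34741 matched RefSeq (GRCm38.p6), and 0 symbols were updated. The number of arrays limits the precision.

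The 44 genes and all lists were chosen with earlier results of these data known. All 44 are named by role. From each list around them, up to 4 genes of smallest p among those that passed were named, and from the marker lists a few defining genes. Msra lies outside this rule and was named after its values were seen. The alternatives were 2 other normalizations, pseudocounts of 4 and 64, no filter or the 60th percentile, 2 other spread models, the mean of all probe sets per gene, and each array left out. Other lists fixed were markers of T and NK cells (2 higher in LT-HSC and 1 lower of 5), macrophages and dendritic cells (5 and 0 of 11), erythroid cells (1 and 2 of 9), platelets (2 and 2 of 9), mast cells (1 and 1 of 7) and the interferon response (0 and 2 of 11). Of 10 sort and stem cell genes 0 were higher and 2 lower, and of 20 immediate early genes 6 and 0. Beside these counts, 7.92% of all tested genes were higher and 6.41% lower.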

Additional observations from a re-analysis of the deposited data

How the results depend on the processing

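Over the 40 genes and 13 alternatives (12 for Mgst3, Nqo1 and Srxn1, which were not tested above the 60th percentile), single genes stayed on their side of the threshold in 460 instances, lost a call in 20, gained one in 34 and were called in the reverse direction in 3. The sign was that of the main comparison in 490 of 517 instances and the opposite in 27, which fell on 13 genes, none of the 6 that passed among them. The reversals were Keap1 (-0.41) and Txnip (-0.36) without ST-HSC replicate 3 and Sod1 (0.25) without ST-HSC replicate 2. The other ST-HSC array left out gave 1.60 for Keap1, 0.42 for Txnip and -0.25 for Sod1, whose main difference was near 0. The count higher in LT-HSC was 3 in the main comparison and ranged from 0 to 12 with an array left out, and the count lower was 3 and ranged from 0 to 14. The count lower was 5 with no normalization between arrays and 1 with no intensity trend, and the cause was not tested. Under the other alternatives both counts lay between 2 and 4. The median over the 40 genes stayed below 0 under every alternative run, from -0.40 without LT-HSC replicate 1 to -0.07 with the arrays centred on their medians. The median over all tested genes was also below 0 under each. It was -0.13 with no normalization, against -0.17 over the 40, and -0.03 with median centring. Foxo1 and Prdx4 passed under 11 of 13 alternatives, Mgst2 under 10, Gpx1 and Txnrd1 under 9, and Nqo1 under 7 of 12. Over all genes, 257 and 248 passed without LT-HSC replicate 1 and 2, against 1838 in the main comparison. No paired analysis was possible because the groups share only replicate number 2. Intensities near background, as for Nqo1 in LT-HSC, limit what can be said of a fold.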
